A study of Homo sapiens with 11 samples.

Results

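AMOTL2, CYR61, CTGF, ANKRD1 and LATS2 are 5 genes known as targets of the Hippo-YAP pathway, and the binding of 2 steroid hormone receptors and the acetylation of histone H3 were described around them in a human cell line of endometrial cancer, Ishikawa. The peaks were chosen by position: every deposited peak that touched a gene body or the 50 kb on either side of it (hg19) is a member, 143 of the 90458 peaks in 8 peak lists. The genes themselves were picked with earlier results of these lists known, so that being near such peaks is no finding and no test was made. All cells were first kept in medium whose serum had been stripped of steroids with charcoal. The combination groups then received 2 hormones together, dexamethasone at 100 nM, which activates the glucocorticoid receptor (GR), and estradiol at 10 nM, which activates the estrogen receptor (ER). The estradiol and dexamethasone groups received 1 of these hormones at the same dose, and the vehicle group received DMSO. ER (combination, estradiol) and GR (combination, dexamethasone) were profiled by chromatin immunoprecipitation and sequencing after 1 h, and H3K27ac, the acetylation of histone H3 at lysine 27 found at active promoters and enhancers, after 8 h (combination, estradiol, dexamethasone, vehicle). The 8 h is from the label of each H3K27ac sample, while the treatment protocol gives 1 h for all. Of the 11 samples, those of ER and GR after vehicle and the control were not analysed here, so receptor binding before hormone is not known, and the identity of the cells was not checked, as no RNA was measured. Each group is 1 library of 1 cell line, so no replicate spread exists and every difference is between single libraries.

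The Hippo pathway is a kinase cascade that restrains the coactivators YAP and TAZ. When it is inactive they enter the nucleus, join TEAD transcription factors on DNA and switch on genes of growth, adhesion and matrix. LATS2 is a kinase of the cascade that phosphorylates YAP and TAZ, AMOTL2 is an angiomotin family scaffold of cell junctions that can hold YAP in the cytoplasm, and both are also induced by YAP, a negative feedback. CYR61 (CCN1) and CTGF (CCN2) are secreted matricellular proteins of the CCN family, and ANKRD1 is an ankyrin repeat protein; these genes are the targets most often used as readouts of YAP.

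The promoters that the peaks bear on are shown because YAP acts through TEAD, which binds the core GGAATG. RefSeq (GRCh38.p14) gave 5 promoters for 4 of the genes, each from 250 bases before to 50 bases after the start. The promoter of CYR61 was not in the set used and was not searched. Those printed run 5′ to 3′ on the strand of their gene, the minus strand for all 4. Capitals mark matches on either strand to GGAATG (TEAD core), AGAACA (a hexamer bound by GR) or GGTCA (part of the hexamer bound by ER), none of which overlapped another; a match is a description of letters and not a bound site.
AMOTL2, downstream start, chr3:134374398-134374697: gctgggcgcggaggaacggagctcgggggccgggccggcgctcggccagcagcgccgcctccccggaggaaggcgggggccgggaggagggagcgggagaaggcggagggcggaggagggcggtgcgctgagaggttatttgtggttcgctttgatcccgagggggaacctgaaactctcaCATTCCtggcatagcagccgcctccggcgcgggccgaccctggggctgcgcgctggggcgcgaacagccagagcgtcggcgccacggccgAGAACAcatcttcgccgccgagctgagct
ANKRD1, chr10:90921038-90921337: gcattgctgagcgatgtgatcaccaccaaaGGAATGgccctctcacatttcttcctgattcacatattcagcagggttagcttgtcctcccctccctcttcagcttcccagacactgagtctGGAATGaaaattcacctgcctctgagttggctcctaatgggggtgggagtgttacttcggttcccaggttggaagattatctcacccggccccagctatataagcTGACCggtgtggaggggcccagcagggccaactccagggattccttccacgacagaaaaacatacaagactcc
CTGF, chr6:131951323-131951622: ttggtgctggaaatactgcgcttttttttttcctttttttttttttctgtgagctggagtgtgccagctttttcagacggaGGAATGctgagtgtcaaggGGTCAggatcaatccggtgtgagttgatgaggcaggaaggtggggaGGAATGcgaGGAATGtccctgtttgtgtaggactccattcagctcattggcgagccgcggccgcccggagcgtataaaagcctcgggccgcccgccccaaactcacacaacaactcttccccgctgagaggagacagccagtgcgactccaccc
LATS2, chr13:21061537-21061836: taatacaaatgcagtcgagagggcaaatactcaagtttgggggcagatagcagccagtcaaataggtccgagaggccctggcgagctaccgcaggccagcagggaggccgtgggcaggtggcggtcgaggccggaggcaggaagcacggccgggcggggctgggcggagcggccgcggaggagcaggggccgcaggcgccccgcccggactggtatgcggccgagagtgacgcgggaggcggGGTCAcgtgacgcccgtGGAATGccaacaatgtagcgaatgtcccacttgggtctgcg

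The TEAD core was found 3 times in the CTGF promoter, starting 169, 104 and 95 bp before the start, and 2 times in that of ANKRD1, at 220 and 128 bp before it. It was found 1 time in the downstream AMOTL2 promoter, as the reverse complement 69 bp before the start, and 1 time in that of LATS2, 9 bp after the start. The upstream AMOTL2 promoter held none of the 3 motifs. Of all 35116 RefSeq promoters of this length, 14.0% held GGAATG and 0.128% held it 3 times or more. The GR hexamer was in the downstream AMOTL2 promoter alone of the 5, 21 bp after the start, and in 14.8% of all promoters. The ER motif was in the promoters of CTGF, ANKRD1 and LATS2 and in 37.4% of all promoters.

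AMOTL2 (hg19 chr3:134074187-134094259, minus strand) held most of the receptor peaks of the 5 genes, 22 of 36. ER was called at 7 places with the combination and at 9 with estradiol, and GR at 4 with the combination and 2 with dexamethasone. Merged over the 4 receptor lists these made 11 sites. All lay inside the gene or downstream of it, none upstream, between 231 bp and 61.9 kb from the 5′ end. The values given for a site are the authors' fold enrichment, the pileup of fragments at the summit over the local control background, and its rank by −log10 q within its own list; they describe a peak within its list and are not levels to compare between lists.

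The strongest ER site of the locus was chr3:134046464-134046732, 27.5 kb beyond the 3′ end of the gene and 47.7 kb from its 5′ end. It had a fold enrichment of 49.9 with the combination, within the top 1.64% of that list, and 51.4 with estradiol, within the top 0.309%. GR was called there with the combination, at a fold of 11.5 and within the top 66.7% of its list, and was not called with dexamethasone. The GR peak was thus among the weaker of its list at a place where ER was among the strongest.

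Near the start of AMOTL2 lay 2 further strong ER sites with the same set of calls. The site chr3:134093848-134094190, 231 bp inside the gene, had an ER fold of 37.0 with the combination and 45.8 with estradiol, and a GR fold of 17.8 with the combination. The site chr3:134093204-134093517, 923 bp inside, had an ER fold of 20.1 with the combination and 18.2 with estradiol, and a GR fold of 10.1 with the combination. Neither was called for GR with dexamethasone. RefSeq gives AMOTL2 a second start 970 bp downstream of the first in GRCh38, where the gene is 20073 bp long as in the hg19 coordinates used here. The 300 bases of its promoter shown above span 720 to 1019 bp from the first start, and the second receptor site spans 742 to 1055 bp from the hg19 5′ end.

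GR with dexamethasone alone was called at other places of the locus. One was chr3:134082962-134083228, 11.1 kb inside the gene, with a GR fold of 12.5 with dexamethasone and ER folds of 10.1 with the combination and 15.1 with estradiol; GR was not called there with the combination. The other, chr3:134032302-134032417, 41.8 kb beyond the 3′ end, had a GR fold of 8.44 and no ER call. A GR site called with the combination alone, chr3:134051203-134051320, had a fold of 10.8. None of the 4 GR sites of the combination at AMOTL2 was thus among the 2 called with dexamethasone; over the whole lists 63.1% of combination GR peaks overlapped a dexamethasone peak, and 56.8% of dexamethasone GR peaks overlapped a combination peak.

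The remaining AMOTL2 sites were ER sites of modest strength. Those called in both ER lists lay 17.0, 26.7 and 41.6 kb from the 5′ end, with folds of 5.26, 11.4 and 9.17 with the combination and 5.60, 12.9 and 12.2 with estradiol. Sites called with estradiol and not with the combination lay at 32.9 and 48.3 kb, with folds of 14.6 and 12.1. Over the whole lists the median fold was 14.2 for ER with the combination and 14.0 for ER with estradiol, and it was 13.5 for GR with the combination and 13.0 for GR with dexamethasone.

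**Figure D1:**
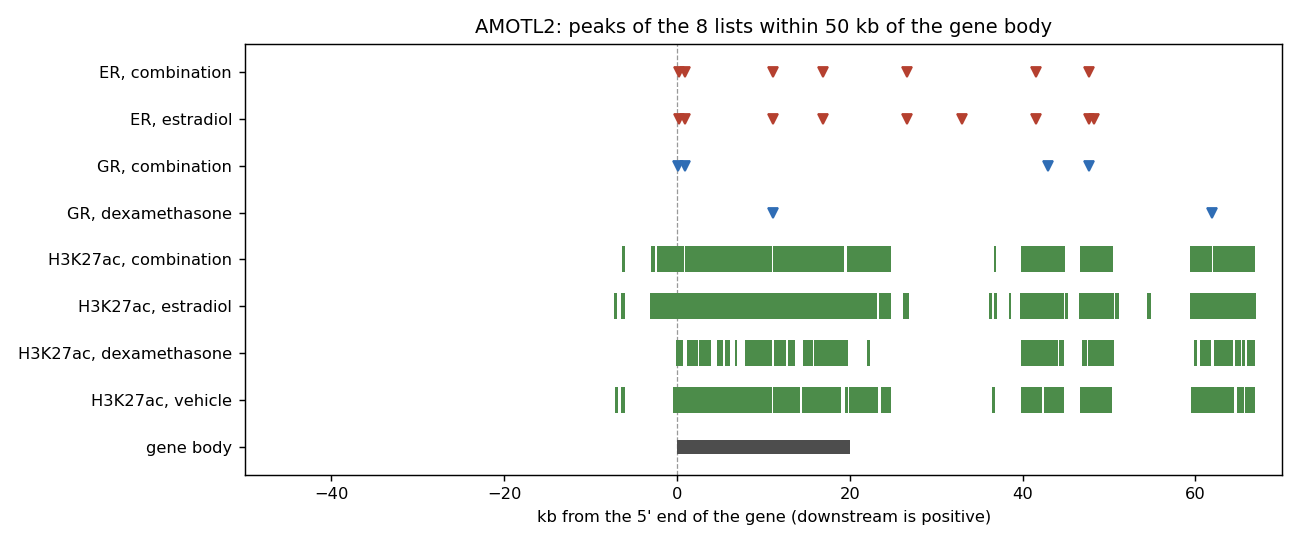
Peaks of the 8 lists within 50 kb of AMOTL2, by distance in kb from the 5′ end of the gene. Triangles are receptor summits (red ER, blue GR), green bars are H3K27ac peaks and the grey bar is the gene. The 3 ER sites where GR was called with the combination and not with dexamethasone lie 0.231, 0.923 and 47.7 kb from the 5′ end. The H3K27ac track of the dexamethasone list is the most broken over the gene.

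The AMOTL2 gene lay inside 1 of the widest acetylated regions of the series. Merged over the 4 lists, H3K27ac covered chr3:134069440-134097344 without a break, 27905 bp, rank 2 by width of 27111 merged regions. With estradiol a single peak of 26303 bp covered the whole gene body and was also rank 2 by width of 23888 peaks in its list. Peaks of the combination list covered 96.8% of the merged region in 5 pieces, those of the estradiol list 99.2% in 2, those of the dexamethasone list 56.9% in 13 and those of the vehicle list 85.2% in 8. Over the 7516 regions present in all 4 lists the median cover was 86.4% with the combination, 92.9% with estradiol, 58.7% with dexamethasone and 78.4% with vehicle, so that the dexamethasone list covered least there too. This did not hold among the 96 of them at least 10 kb wide, a width set after the AMOTL2 region was seen. There the median was 90.4% with dexamethasone and 87.3% with vehicle.

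Across the whole AMOTL2 window, 12 peaks covered 43.9 kb with the combination, 14 covered 48.5 kb with estradiol, 23 covered 30.2 kb with dexamethasone and 18 covered 40.3 kb with vehicle. The dexamethasone list thus held the most peaks and the least length. As a share of the window these were 36.6%, 40.4%, 25.1% and 33.5%, where the same lists in that order covered 0.750%, 0.895%, 0.459% and 0.665% of the effective genome of 2.7 Gb. The gene was picked with its peaks known, so the higher share is no finding. In the windows of the other genes the share ran from 0% (LATS2, dexamethasone) to 7.80% (CYR61, estradiol). The median fold of the peaks was 17.0 with the combination, 9.45 with estradiol, 11.0 with dexamethasone and 12.4 with vehicle. The median counts each peak once whatever its width. The highest fold was 30.4, 51.1, 24.4 and 35.1 in the same order, so estradiol had the lowest median and the highest maximum. The peak of highest −log10 q had its summit 11.46 kb from the 5′ end with the combination, 11.54 kb with estradiol, 17.8 kb with dexamethasone and 11.52 kb with vehicle. In the vehicle list a peak with its summit at 17.7 kb was nearly as strong, with a −log10 q of 191.7 against 192.8 for that at 11.52 kb and the higher fold, 29.0 against 20.8, so the place of the strongest peak did not set the dexamethasone list apart from vehicle. With all H3K27ac lists cut to the 15192 strongest peaks, the full length of the dexamethasone list, the window held 9 peaks with the combination, 7 with estradiol, 23 with dexamethasone and 13 with vehicle.

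Downstream of AMOTL2, 3 more acetylated regions were present in all 4 lists, and all carried receptor sites. The strongest ER site lay in chr3:134043644-134047766, whose highest H3K27ac fold was 19.9 with the combination, 40.8 with estradiol, 19.8 with dexamethasone and 19.7 with vehicle. The region chr3:134027296-134034876 held the distal dexamethasone GR site, with highest folds of 29.5, 51.1, 16.9 and 35.1 in the same order of lists. The third, chr3:134049365-134054578, had 17.8, 18.1, 19.7 and 14.4. The other 9 regions of the window were narrow and differed in presence between lists. Of these, 6 were called with estradiol alone, 335 to 687 bp wide with folds of 4.82 to 8.41. They were 6 of all 13 regions of the window, where 14.4% of all 27111 regions were of the estradiol list alone. Their peaks ranked between 76.4% and 98.4% of that list, and 0 of the 6 were left with the list cut to the 15192 strongest peaks. The ER site of both ER lists at 26.7 kb from the 5′ end lay on 1 of the 6. The other 3 were called with vehicle and estradiol and not with dexamethasone, and 2 of these 3 were also called with the combination.

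CYR61 (hg19 chr1:86046444-86049648, plus strand) had the only site of the 5 genes called in all 4 receptor lists. It was chr1:86072801-86073264, 26.7 kb from the 5′ end and downstream of the gene, with ER folds of 11.3 with the combination and 16.4 with estradiol, and GR folds of 13.4 with the combination and 10.8 with dexamethasone. The 4 peaks overlapped, but their summits spread over 208 bp. The estradiol ER summit lay at 86072931 and the dexamethasone GR summit at 86073133. Calls in all 4 receptor lists were found at 231 of the 5219 merged receptor sites of the series (4.43%). H3K27ac was called around the CYR61 site in all 4 lists, with folds of 16.3 with the combination, 16.4 with estradiol, 11.4 with dexamethasone and 9.88 with vehicle. An ER site 29.7 kb upstream had folds of 11.5 with the combination and 12.3 with estradiol and no acetylation in any list. The ER site nearest to the gene, chr1:86042332-86042543, was called with estradiol alone, 4.01 kb upstream, with a fold of 8.33. On that side the nearest coding gene in RefSeq is DDAH1, and distance alone does not tie the site to CYR61.

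The CYR61 gene itself was acetylated in every list and carried no receptor site. The peaks over it covered 64.6% of the body with the combination, 77.1% with estradiol, 41.2% with dexamethasone and 73.8% with vehicle. The strongest had folds of 16.5, 16.2, 9.74 and 16.1 in the same order. Acetylation at the upstream ER site was called with the combination, estradiol and vehicle and not with dexamethasone. A region 30.4 kb downstream was called in all 4 lists and had no receptor site within 1 kb.

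ANKRD1 (hg19 chr10:92671857-92681032, minus strand) had a receptor site on its 5′ end. The site chr10:92680930-92681143 ran from 102 bp inside the gene to 111 bp upstream, and its ER fold was 5.32 with the combination, within the top 85.0% of that list, and 9.37 with estradiol, within the top 34.4%. GR was called there with the combination at a fold of 6.26 and was not called with dexamethasone. The hg19 gene body used here is 9176 bp long and that of RefSeq in GRCh38 is 8992 bp, so the start may be placed otherwise in other annotations. GR lay at a low rank of its list there, within the top 88.5%. H3K27ac over the start was called with estradiol alone, in a peak of 388 bp with a fold of 5.49, within the top 95.6% of its list, that is among its weakest. With every H3K27ac list cut to the 15192 strongest peaks, the estradiol list held 2 ANKRD1 peaks instead of 3.

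Acetylation 8 kb upstream of ANKRD1, at chr10:92689164-92691555, was called in all 4 lists without a receptor site within 1 kb. Its folds were 10.9 with the combination, 8.44 with estradiol, 15.03 with dexamethasone and 7.21 with vehicle. Its rank was within the top 21.9% of the combination list, 29.4% of the estradiol list, 9.85% of the dexamethasone list and 40.2% of the vehicle list. ER sites called with estradiol alone lay 47.6 and 48.0 kb upstream of ANKRD1, close to the edge of the window, with folds of 9.70 and 11.9 and no acetylation.

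CTGF (hg19 chr6:132269316-132272518, minus strand) had no receptor peak of any list within 50 kb. Its promoter held the most TEAD cores of the 4 genes searched, which leave out CYR61. The nearest receptor peak outside the CTGF window was a dexamethasone GR peak 316 kb away. The acetylation at CTGF was small. A region just upstream of the start was called in all 4 lists, with folds of 6.52 with the combination, 6.97 with estradiol, 11.9 with dexamethasone and 7.25 with vehicle. A pair of regions 2.7 and 3.1 kb upstream, 407 and 304 bp wide, was called with the combination and with dexamethasone and in neither of the other lists. Their folds were 7.18 and 8.98 with the combination and 6.70 for both with dexamethasone. They ranked within the top 87.4% and 60.3% of the combination list. Both ranked within the top 92.7% of the dexamethasone list, that is among its weakest. Of all 27111 regions, 14.9% were called with the combination and not with vehicle. For dexamethasone without vehicle the share was 10.8%, and the share with both hormone lists was not counted. With the H3K27ac lists cut to 15192 peaks each, the CTGF window held 1 peak with the combination, 4 with dexamethasone and 0 with estradiol and with vehicle. The cut removes no peak from the dexamethasone list, which has that length.

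LATS2 (hg19 chr13:21547171-21635722, minus strand) had GR and no ER. The site chr13:21607693-21607896, 27.9 kb inside the gene, had a GR fold of 27.1 with the combination, within the top 17.8% of that list, and 38.5 with dexamethasone, within the top 9.97%. The summits of the 2 lists were 2 bp apart, and no H3K27ac list had a peak on the site. The 5′ end was acetylated in 1 merged region, chr13:21634867-21636266, with highest folds of 13.7 with the combination, 13.4 with estradiol and 8.26 with vehicle. The dexamethasone list had no peak anywhere in the LATS2 window, and 35.3% of all 27111 regions were called with vehicle and not with dexamethasone. The first peak outside the window in any H3K27ac list lay 63.1 kb from the gene.

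**Figure D2:**
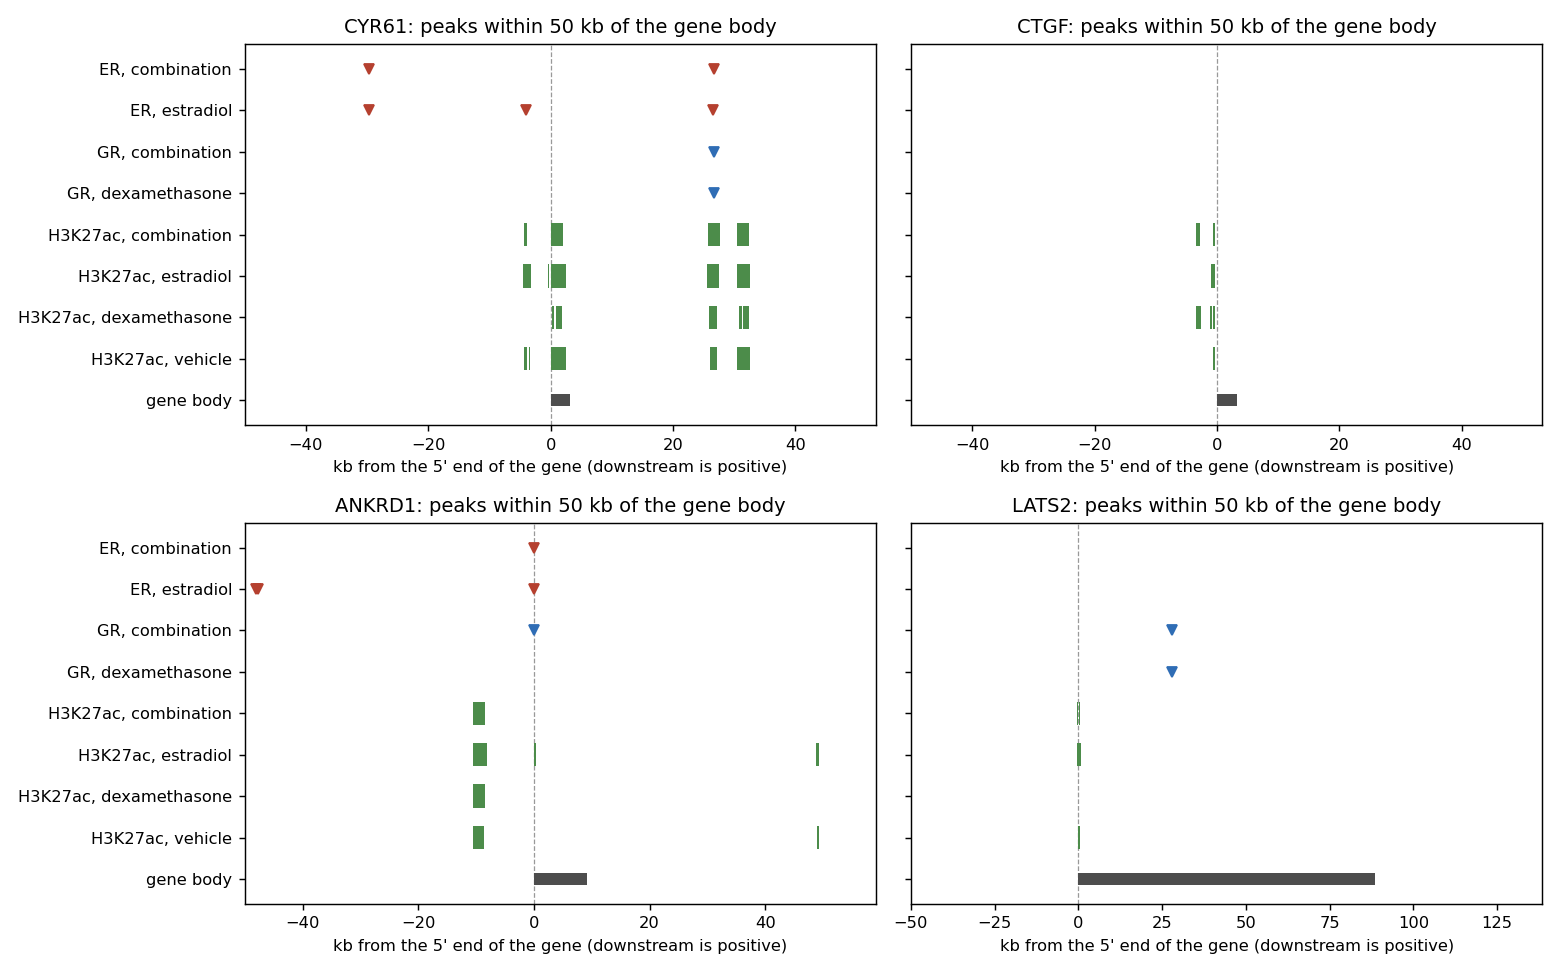
Peaks of the 8 lists within 50 kb of CYR61, CTGF, ANKRD1 and LATS2, drawn as for AMOTL2 (triangles receptor summits, green bars H3K27ac peaks, grey bar the gene; horizontal axes in kb, with a longer range for LATS2). CTGF has no receptor summit, and LATS2 has GR summits and no ER summit.

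**Figure D3:**
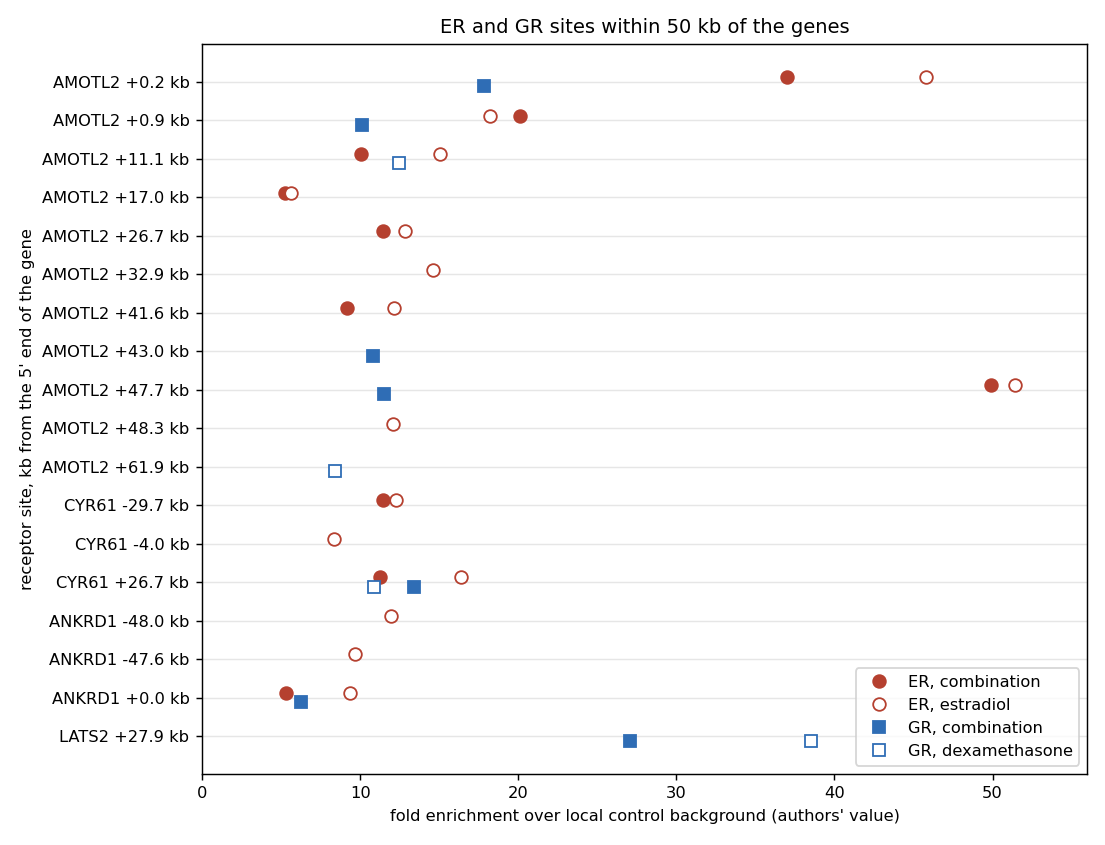
Fold enrichment of each of the 18 merged receptor sites, by gene and distance from the 5′ end. Circles are ER and squares GR, filled for the combination and open for the single hormone, and a missing symbol means no peak in that list. AMOTL2 has the 3 ER sites of highest fold with either treatment, and LATS2 has the highest GR folds, 27.1 with the combination and 38.5 with dexamethasone.

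Over the 5 genes, most ER calls were shared between the combination and estradiol, while GR was called with the combination and with dexamethasone at the same place only at CYR61 and LATS2. All 10 ER peaks of the combination overlapped an estradiol ER peak by at least 1 bp, where 91.9% of the whole combination list did. In the other direction 10 of 15 estradiol ER peaks overlapped a combination peak, near the 61.8% of the whole list. Of the 7 GR peaks of the combination, 2 overlapped a dexamethasone GR peak, against 63.1% of the whole list, and of the 4 dexamethasone GR peaks 2 overlapped a combination peak, against 56.8%. With the ER lists cut to 2382 peaks each, 10 combination and 9 estradiol ER peaks lay in the windows, so that the higher count with estradiol did not hold at equal length.

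ER and GR peaks overlapped at 5 places with both hormones given, and the estradiol ER and dexamethasone GR lists overlapped at 2. Of the 7 combination GR peaks, 5 overlapped a combination ER peak (47.2% of the whole list did), and of the 10 combination ER peaks 5 overlapped a combination GR peak (31.9%). Of the 4 dexamethasone GR peaks, 2 overlapped an estradiol ER peak (20.1%), and of the 15 estradiol ER peaks 2 overlapped a dexamethasone GR peak (10.0%). These counts are small, and they come from genes picked for such peaks. In all, 4 of the 18 merged sites had ER in both lists and GR with the combination alone, 3 at AMOTL2 and 1 at ANKRD1. That pattern was found at 429 of the 5219 merged sites of the series (8.22%).

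Of the 18 sites, 10 shared at least 1 bp with an H3K27ac peak in all 4 lists and 5 with none, where 24.1% and 49.5% of the 5219 merged sites of the series did. The 10 were 9 AMOTL2 sites and the shared CYR61 site. At 3 of the 9, those 0.923, 11.1 and 61.9 kb from the 5′ end, the overlap was at an edge in 1 or more lists and a summit lay between H3K27ac peaks. Sites with every summit inside a peak of all 4 lists numbered 7 of 18, against 16.7% of the series, and the genes were chosen with these peaks known. The 5 were the LATS2 site, the upstream ANKRD1 pair, the CYR61 site 29.7 kb upstream and the AMOTL2 site at 32.9 kb.

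The 5 windows held 25 merged H3K27ac regions, and 9 were present in all 4 lists, against 27.7% of all 27111 regions. A region is called gained where a treatment list has a peak in it and the vehicle list has none, and lost in the reverse case. With the combination 2 were gained (14.9% of all regions were) and 2 lost (15.1%). With estradiol 8 were gained (21.8%) and 0 lost (4.60%). With dexamethasone 2 were gained (10.8%) and 6 lost (35.3%). With lists of equal length, 17 merged regions were left, and 1 was gained with the combination, 2 with estradiol and 4 with dexamethasone. Estradiol thus no longer had the most gains. That cut also shortens the vehicle list and leaves the dexamethasone list whole, and the part of list length was not tested. Against the shares over all regions no count is read as a result about the genes. A receptor site of any list lay within 1 kb of 8 of the 25 regions, against 13.0% of all regions, and the genes were picked for such sites.

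**Figure D4:**
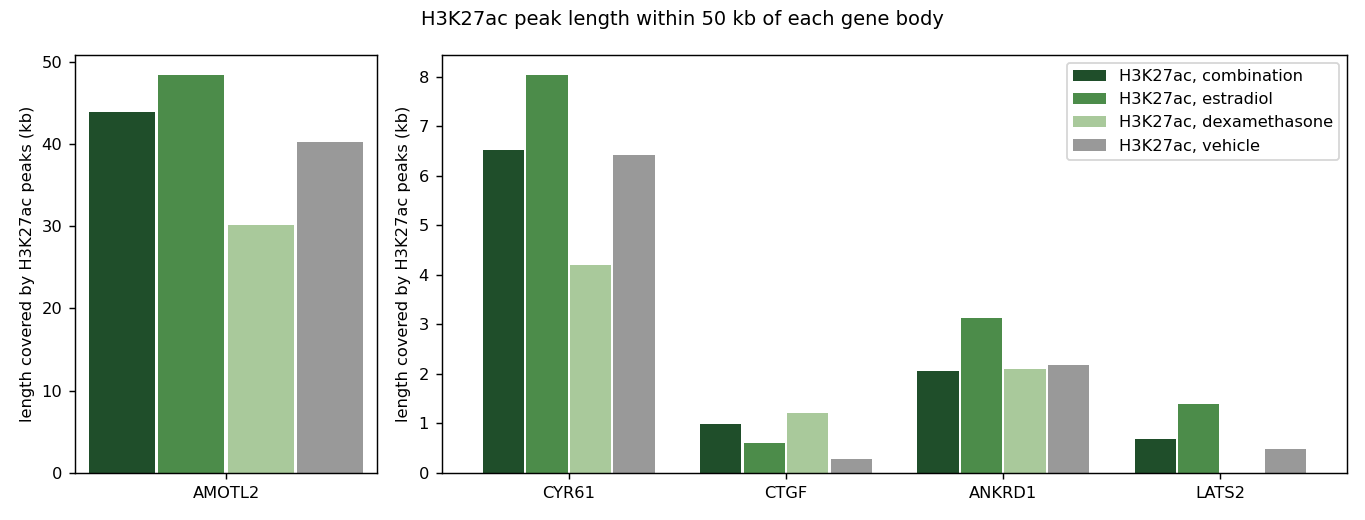
Length in kb covered by H3K27ac peaks in the window of each gene, as bars from 0 for the combination, estradiol, dexamethasone and vehicle lists; AMOTL2 has its own vertical axis. Estradiol covers the most at AMOTL2 (48.5 kb), CYR61, ANKRD1 and LATS2, and dexamethasone the most at CTGF (1.21 kb).

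The lists differ in depth and length, which bears on all of these calls. Usable tags numbered 5206574 to 8508828 in the receptor libraries and 9034395 to 18508574 in the H3K27ac libraries, with duplicates at 12% to 14% and 18% to 33%. The dexamethasone H3K27ac library was the shallowest of its kind with the most duplicates and the shortest list, 15192 peaks against 20873, 23888 and 21120 for the combination, estradiol and vehicle, and the part of depth in the broken or missing dexamethasone peaks was not tested. The windows together are 624 kb, in which receptor peaks stood at 6.41 to 24.0 per Mb against 0.603 to 1.32 per Mb of the effective genome. The genes were picked with these peaks known, so the higher density is no finding. AMOTL2 held 22 of the 36 receptor peaks and CTGF held 0. The 50 kb edge cut no dense group of receptor peaks. The last inside were at 48.0 kb from ANKRD1 (ER, estradiol, fold 11.9) and the first outside at 54.2 kb from CYR61 (ER, combination, fold 11.2).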

How the data were processed

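The submitters' processing notes name Bowtie 1.1.2, MACS2 2.1.0.20140616 and hg19. Each library was called against a control with a p cutoff of 1e-10, no more than 1 tag per position and the larger data set scaled down, per the file headers. The deposited pileup is a signal at the summit, significance was deposited as −log10 of the p-value and q-value, and fold enrichment is the authors' ratio to local background. Whether the control was input or IgG is uncertain, as the labels give both. Control tags after filtering numbered 3479280 (ER), 5735043 (GR) and 14002417 (H3K27ac), the same for every list of a target.

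Gene bodies (hg19) were given with the choice of genes; strands came from RefSeq, and from general knowledge for CYR61. Exons and introns, other Hippo genes and cell type markers were not located, as no hg19 annotation was used here. Peaks sharing 1 bp or more were taken as overlapping, H3K27ac lists were merged where peaks overlapped or touched, and receptor sites were assigned to a region within 1 kb. Overlap code was tested on simulated intervals. Sites were named by 1 rule: every receptor peak, each H3K27ac peak over a start, the strongest per list and gene, and the regions whose presence differs between lists, at most 5 of them per gene in full. Python 3.11.15 and pandas 2.3.3 were used. No p-value was computed between conditions, since each group holds 1 library. Members, lists and settings were chosen with earlier results of these data known. The alternatives were other windows, summit positions, stronger or equal lists, merging and presence rules and distances.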

Additional observations from a re-analysis of the deposited data

How the results depend on the processing

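Of 81 recomputed counts over all 5 genes, 47 stayed within 1.5 times of the value reported and 34 moved further; the cause was not tested beyond the construction of each setting, which drops peaks or widens a search. No paired analysis was possible because each group holds 1 library, and no replicate could be left out. The window of 10 kb left 6 ER peaks with the combination and 7 with estradiol, 4 GR peaks with the combination and 2 with dexamethasone, and 14 H3K27ac peaks with the combination, 12 with estradiol, 20 with dexamethasone and 17 with vehicle. It left 13 merged regions, with 3 gained with estradiol and 1 lost with the combination. In the window of 100 kb, 4 of 34 merged regions were gained and 11 lost with dexamethasone, and 1 was lost with estradiol. Over all regions these shares were 10.8%, 35.3% and 4.60%. The stronger 50% of each list held 4 ER peaks with the combination and 6 with estradiol, 4 GR peaks with the combination and 4 with dexamethasone, and 14, 12, 20 and 18 H3K27ac peaks with the combination, estradiol, dexamethasone and vehicle. With lists of equal length, 9 estradiol ER peaks and 14 estradiol H3K27ac peaks were left. Of 17 merged regions, 1 was gained with the combination, 2 with estradiol and 4 with dexamethasone, while 1 was lost with the combination and 3 with dexamethasone. Estradiol then no longer had the most gains. Joining peaks within 500 bp gave 19 merged regions, with 1 gained and 1 lost with the combination, 4 gained with estradiol and 1 gained with dexamethasone. The shares over all regions were not recomputed with equal lists or with joined peaks. Summits within 100 bp left 1 dexamethasone GR site on an estradiol ER site, that inside AMOTL2, and the CYR61 site dropped out. A receptor site within 10 kb was found for 20 of the 25 regions, and the share over all regions at that distance was not computed. The summit rule, the cover rule and a receptor site inside the region moved none of the counts by over 1.5 times. ER and GR peaks not called at these depths may still be bound below the cutoff.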

Other observations

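Some receptor summits at AMOTL2 lay in short gaps between neighbouring H3K27ac peaks, a feature looked for after the maps were seen, with gaps of up to 500 bp counted. The site 11.1 kb inside the gene fell in a gap of 114 bp in the combination H3K27ac list, 223 bp in the dexamethasone list and 107 bp in the vehicle list, and inside the single wide peak of the estradiol list. The dexamethasone list also had a gap of 404 bp over the site 923 bp from the 5′ end and one of 311 bp over the distal dexamethasone GR site. With each receptor list set against the H3K27ac list of the same treatment, such gaps held 1 of the 10 combination ER summits of the 5 windows (10.8% of the whole list), 0 of the 15 estradiol ER summits (7.33%), 0 of the 7 combination GR summits (10.9%) and 2 of the 4 dexamethasone GR summits (13.2%).

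Among the 96 merged regions of at least 10 kb present in all 4 lists, a width set after the AMOTL2 region was seen, the dexamethasone list covered a median of 90.4% and the vehicle list 87.3%. The AMOTL2 region had a lower dexamethasone cover than 87 of them and a lower vehicle cover than 62. Its combination cover, 96.8%, was at the median of 96.8%, and its estradiol cover of 99.2% stood beside a median of 94.9%.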
